A study of Homo sapiens with 18 samples.

Results

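The genes described here encode the proteins of the cytosolic ribosome. They were chosen by symbol from the gene table: protein-coding genes named RPSA, RPLP0, RPLP1, RPLP2, or RPL or RPS followed by a number and an optional letter or L suffix, with a mean of at least 10 counts over the 18 libraries. The kinases of the RPS6K family, pseudogenes and antisense genes were left out. Of 58735 genes in the table, 87 had such a symbol and 83 reached the count minimum. RPL3L and RPL10L were among the 4 below it. The members comprised 43 genes of the large subunit, 31 of the small subunit, the 3 stalk genes RPLP0, RPLP1 and RPLP2, and 6 genes for near-copies of a ribosomal protein, called paralogs below (RPL7L1, RPL22L1, RPL26L1, RPL36AL, RPL39L and RPS27L). No expression difference was used in the choice, and all 83 passed the filter on low counts. That filter does not require counts in every group, and the range of the lowest member is given in the last section.

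The libraries came from RPMI-8402, an established human line of T-cell acute lymphoblastic leukaemia (T-ALL). Control cells (NT) had received a non-targeting guide, and knockout cells (KO) had lost PIK3R1 by the labels, a gene that encodes a regulatory subunit of phosphoinositide 3-kinase. Each genotype received the vehicle DMSO, the NOTCH transcription inhibitor CB-103, or the gamma-secretase inhibitor LY3039278 (GSI), for 24 h. This gave 6 groups of 3 libraries, named NT DMSO, NT CB-103, NT GSI, KO DMSO, KO CB-103 and KO GSI. The sources used here give no doses. They do not say whether KO cells were 1 clone or a pool, or whether replicates were grown apart, so every p-value measures only the spread between these libraries.

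Ribosomal proteins are made in nearly equal numbers of copies, since each ribosome holds 1 copy of most of them and several of the stalk proteins RPLP1 and RPLP2. Their genes are dispersed over the chromosomes, and are known for steady transcription from short core promoters and for messages that start with a C followed by a run of pyrimidines. This 5′ terminal oligopyrimidine (TOP) tract lets mTOR, acting through LARP1, control how well the messages are translated and how stable they are. In T-ALL, NOTCH1 and MYC are known to drive genes of ribosome production, and RPL5, RPL10 and RPL22 are known to be mutated or deleted in some patients.

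The start sequences are shown because the tract is the feature that these genes share outside their coding sequence. RefSeq promoters (GRCh38.p14) were matched for 67 of the 83 members. Each line gives 30 bases of the coding strand, centred on the annotated start, and capitals mark the longest pyrimidine run that came within 10 bases of the start. The first 9 genes are the members that the comparisons below turn on, and the last 3 are paralogs.
RPL7A: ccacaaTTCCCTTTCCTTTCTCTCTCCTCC
RPL24: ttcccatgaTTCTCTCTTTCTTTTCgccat
RPS9: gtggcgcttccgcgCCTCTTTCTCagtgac
RPL10: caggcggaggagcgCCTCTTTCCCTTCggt
RPL31: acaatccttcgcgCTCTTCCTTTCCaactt
RPL38: aacggaagtctcgttctttttcgTCCTTTT
RPS3A: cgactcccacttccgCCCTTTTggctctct
RPS13: ttccactctcgCTCTCCTTTCgttgcctga
RPL21: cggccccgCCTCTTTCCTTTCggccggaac
RPL22L1: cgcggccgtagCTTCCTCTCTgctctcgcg
RPL7L1: cggaagtgcggcgCCgtagctaggagcgga
RPL26L1: ggcggggcggcggccacaaaCCCgcaggca

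These windows lie at chr9:133348203-133348232 (plus strand) for RPL7A, chr3:101686704-101686733 (minus) for RPL24, chr19:54200843-54200872 (plus) for RPS9 and chrX:154398362-154398391 (plus) for RPL10. RPL31 starts at chr2:101002274-101002303 (plus), RPL38 at chr17:74203663-74203692 (plus), RPS3A at chr4:151099613-151099642 (plus), RPS13 at chr11:17077653-17077682 (minus) and RPL21 at chr13:27251543-27251572 (plus). The paralogs lie at chr3:170870181-170870210 (minus) for RPL22L1, chr6:42879601-42879630 (plus) for RPL7L1 and chr5:172958865-172958894 (plus) for RPL26L1. RPL7A has the longest tract of those shown, 25 bases, which runs past its window, as does the tract of 11 bases of RPL38. RPL24 has 16 bases, RPS3A 7, RPL26L1 3 and RPL7L1 2. The annotated start used was not always that of the main transcript, the most abundant one in NT DMSO. It lay 544 bases from that start for RPL26L1, 402 for RPL31, 249 for RPL21, 120 for RPS13, 64 for RPL24 and 55 for RPS3A. These windows may therefore miss the start of the main message.

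A tract of at least 8 pyrimidines at the start was present in 51 of 62 matched members other than paralogs (82.3%), against 15.2% of 35116 promoters in the table and 2 of 5 matched paralogs. Some starts lay far from that of the main transcript. Among members without a tract this held for RPS29 (12334 bases), RPS27L (544), RPL26L1 (544) and RPL6 (356). Among those with a tract it held for RPL18 (1294) and RPL14 (538), for example. Other motifs were searched on both strands in windows of 300 bases, from 250 before to 50 after the start. CCGGAAG, the core of an ETS-family site, occurred in 21 of the 62 (33.9%) and in 10.3% of all promoters. The E-box CACGTG occurred in 3 (4.84%) against 7.26%, and TATAAA in 5 (8.06%) against 11.5%. These are letter matches in the reference, and no binding was measured here.

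Levels were compared between genes in TPM, the transcript abundance unit that corrects for length and sums to a fixed total in each library. In NT DMSO the 77 members other than paralogs had a median of 2502 TPM, and 69 of them lay within 2-fold of the median. RPL9 was lowest at 864.1 TPM. RPL22 (938.8 TPM) and RPS28 (1017 TPM) were also low, and RPS27 (7022 TPM) and RPL41 (6596 TPM) high. The paralogs were lower. RPL36AL reached 524 TPM, RPL39L 137, RPL7L1 93.5, RPS27L 45.9, RPL22L1 44.4 and RPL26L1 15.1 TPM.

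Some of these levels depend on how reads were divided between near-identical sequences. The annotation held 1144 pseudogenes named after members. They took 68.9% of the summed reads of RPL9 with its pseudogenes, 59.4% of those of RPL23A, 11.2% of RPS2 and 10.6% of RPS28. The levels of RPL9 and RPL23A are therefore uncertain. Adding the pseudogene reads back changed the count of called members by at most 1 in each of the 11 comparisons below.

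Library totals ranged from 30416183 to 43558387 estimated reads. PIK3R1 stood at 44.3, 45.5 and 42.5 CPM (counts scaled to library size, not per length) in NT DMSO and at 23.1, 21.4 and 23.2 CPM in KO DMSO, so RNA of the targeted gene remained in the knockout libraries. Under CB-103 its levels in NT (31.1±2.2 CPM, SD, n = 3) and KO cells (27.8±2.0 CPM, SD, n = 3) did not differ past the threshold (edgeR adjusted p = 0.17). Of 8 markers of this T-ALL line, 7 reached 1 CPM (LMO2 had 4 reads in all), and none of 5 erythroid markers did. Of 5 B-cell and 5 myeloid markers 2 each reached it, summing to 1.45 to 4.62 and 1.17 to 2.71 CPM over groups. Among 6 markers of adherent cells, PECAM1 (77.0 to 255 CPM over groups) and COL1A1 (3.63 to 22.8 CPM) were present and the others stayed below 1 CPM. The part of these markers in the results was not tested. Replicate 1 stood apart: in all 6 groups it was the lowest library for 18 members, among them RPS29, RPS21 and RPS27, and the highest for 4, RPL4, RPL11, RPLP1 and RPL22.

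In NT DMSO, 7.86%, 7.80% and 7.89% of all counts came from the 83 genes, a mean of 7.85% (SD 0.049, n = 3). NT CB-103 had 7.36%, 7.47% and 7.49%, all below NT DMSO. NT GSI had 7.0%, 8.16% and 7.45%, on both sides of it, while mitochondrially encoded genes took 5.51%, 1.90% and 3.95% of the counts of the same 3 libraries, whose part in this spread was not tested. That mitochondrial share also moved with the other groups: it was 3.22%, 3.09% and 3.72% in NT DMSO, 5.47%, 4.73% and 5.47% in NT CB-103 and 1.88%, 1.81% and 1.69% in KO DMSO. KO DMSO had 7.96%, 8.21% and 8.22%, and KO CB-103 had 7.86%, 8.24% and 8.51%. The highest mean was that of KO GSI, with 8.46%, 9.0% and 9.40%, where every library lay above every NT DMSO library. Every KO DMSO library lay above them too, but these groups overlapped once mitochondrially encoded genes were left out of the denominator. Without mitochondrially encoded genes in the denominator the means were 8.12% in NT DMSO, 7.85% in NT CB-103, 7.83% in NT GSI, 8.28% in KO DMSO, 8.39% in KO CB-103 and 9.18% in KO GSI. A share does not tell fewer ribosomal protein transcripts per cell from more of other RNA, and in bulk samples fewer cells of a type and less RNA per cell cannot be told apart.

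**Figure D1:**
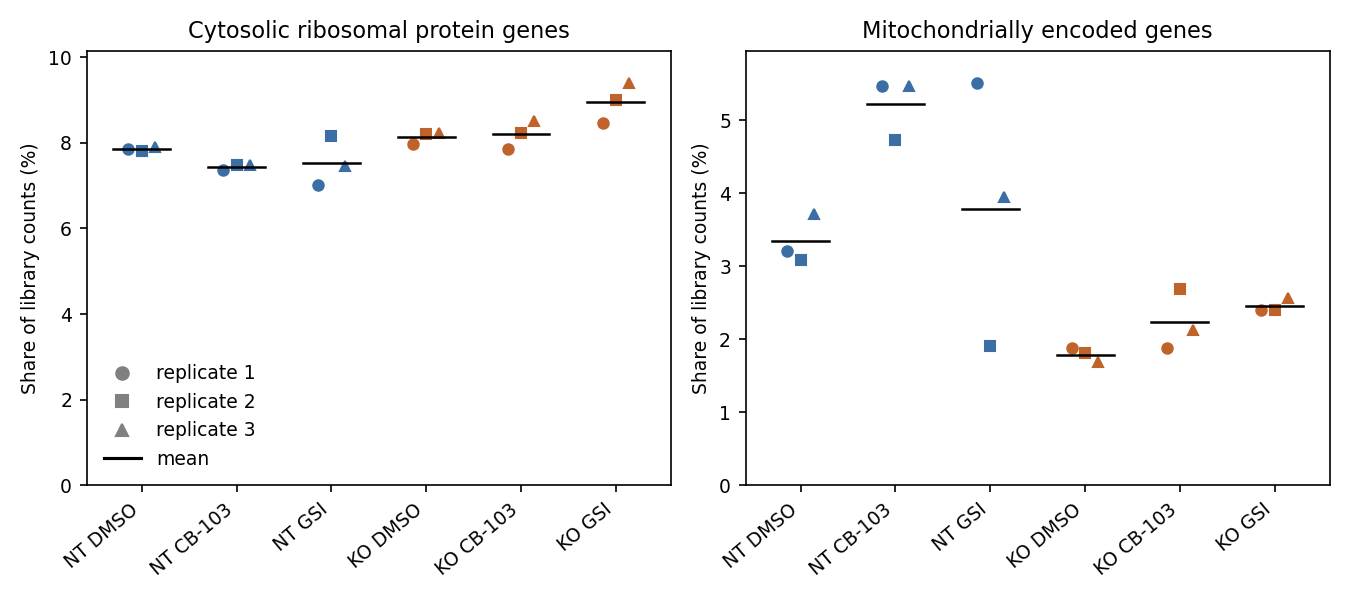
Share of library counts (%) from the 83 cytosolic ribosomal protein genes (left) and from mitochondrially encoded genes (right) in each library; symbols are replicates, blue NT, orange KO, and bars group means. The 3 KO GSI libraries, at 8.46% to 9.40%, lie above all NT libraries on the left, and NT GSI is the most spread group in both panels.

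With CB-103 in NT cells, against NT DMSO, ribosomal protein genes shifted downward by a small amount while single members fell much more. The test was edgeR's quasi-likelihood test with Benjamini-Hochberg adjustment over 17346 genes, with calls made below an adjusted p of 0.05. Of the 83, 35 fell, 2 rose and 46 did not pass, with a median log2 fold change of -0.14. Over all genes tested 28.7% fell and 29.5% rose, with a median of 0.04. Among the 2345 genes that averaged 100 CPM or more, the abundance class of most members, 53.3% fell, and the median was -0.21. The share of members that fell (42.2%) was thus above that of all genes and below that of abundant genes.

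The steepest member was RPL7A, a large-subunit protein whose gene (chr 9, 133348214-133351426 in hg38) hosts 4 small nucleolar RNA genes. RPL7A stood at 1751, 1740 and 1699 CPM in NT DMSO and at 1041, 1005 and 932.7 CPM in NT CB-103 (log2 fold change -0.80±0.05 SE, adjusted p = 5.3e-10). No library of either group came near the other group. Levels of RPL24, a large-subunit protein at the subunit interface, went from 622.7, 624.6 and 626.2 CPM to 478.3, 446.4 and 436.5 CPM (-0.46±0.06, adjusted p = 3.7e-06). RPL23A, which lies at the nascent chain exit, fell by 0.48 (SE 0.05), with the limit on its level given above.

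In the small subunit, 11 of 31 fell and none rose. RPS2, a protein of the messenger entry site, went from 1447, 1337 and 1295 CPM to 1062, 915.8 and 881.0 CPM (-0.51±0.08, adjusted p = 2.8e-05). RPS26 (-0.40±0.06), RPS9 (-0.28±0.06) and RPSA, which doubles as a laminin receptor (-0.27±0.05, adjusted p = 0.00015), fell too. None of the stalk genes was called. RPLP0 gave 0.10±0.05, RPLP1 -0.07±0.13 and RPLP2 -0.26±0.12.

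The 2 members called higher were RPL10 and RPL26. RPL10, a protein that joins the large subunit late in its assembly, stood at 1280, 1359 and 1410 CPM in NT DMSO and 1507, 1657 and 1628 CPM in NT CB-103 (0.24±0.09, adjusted p = 0.026). The groups did not overlap, but the call was lost without NT DMSO replicate 1 (adjusted p = 0.099) or 2 (0.055) and without NT CB-103 replicate 2 (0.083) or 3 (0.073). RPL26 gave 0.15±0.06 (adjusted p = 0.038) and lost its call without any 1 of NT DMSO replicates 1 and 2 and the 3 NT CB-103 libraries. RPL22 fell by 0.53 (SE 0.18, adjusted p = 0.015). That call was lost without NT DMSO replicate 1, its highest library (adjusted p = 0.086), or without NT CB-103 replicate 2 (0.063) or 3 (0.072).

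**Figure D2:**
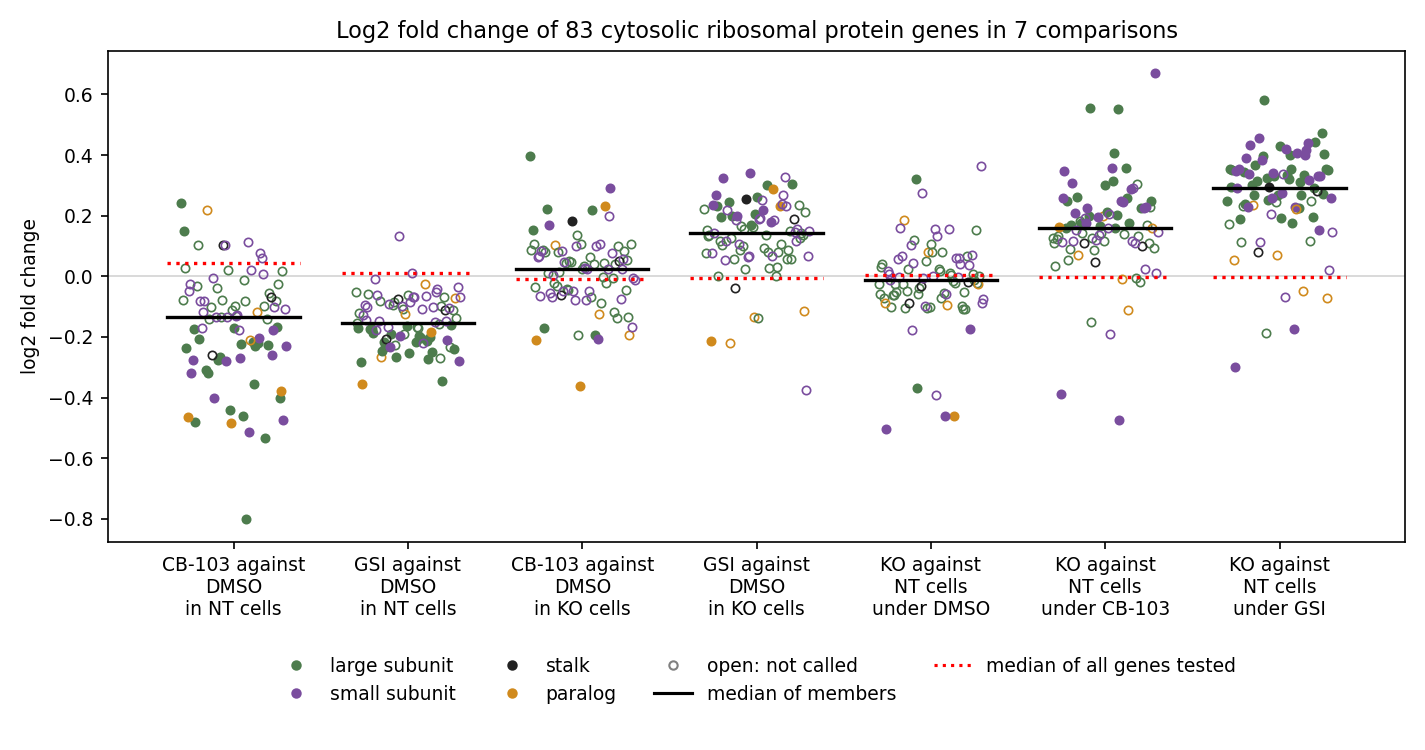
Log2 fold change of each of the 83 genes in 7 comparisons; filled points were called at an adjusted p under 0.05, colours give the subunit, black bars the median of the members and red dotted lines the median of all genes tested. Medians of the members lie at -0.14 and -0.15 for the inhibitors in NT cells and at 0.16 and 0.29 for KO against NT cells under CB-103 and GSI.

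With GSI in NT cells, against NT DMSO, ribosomal protein genes were lower by small amounts, and most of the calls were in the large subunit. Of the 83 members, 28 fell (33.7%) and none rose. Of all genes 15% fell and 9.67% rose, and of abundant genes 30.1% and 9.85%. The log2 fold change was negative for 81 of 83 members (median -0.15, against 0.01 over all genes and -0.09 over abundant ones). All 43 large-subunit genes were negative and 22 of them fell (median -0.18), whereas 4 of 31 small-subunit genes fell (median -0.10). The difference between the subunits was not tested. No single change was large, the extremes being -0.36 and 0.13.

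The paralog RPL7L1, a protein of large-subunit assembly, stood at 252.8, 245.5 and 252.3 CPM in NT DMSO and at 189.9, 198.4 and 198.5 CPM in NT GSI (-0.36±0.05, adjusted p = 2.3e-05). These groups were far apart for their spread. RPL36 went from 530.3, 485.4 and 511.8 CPM to 361.4, 438.6 and 403.6 CPM (-0.34±0.06, adjusted p = 0.00057). RPS23, a protein of the decoding centre, fell by 0.28 (SE 0.05, adjusted p = 0.0005), as did RPL38 (SE 0.05, adjusted p = 0.00071). RPL5, which with RPL11 binds MDM2 in the pathway to p53, fell by 0.23 (SE 0.06, adjusted p = 0.0096), a call lost without NT DMSO replicate 1. RPL11 itself gave -0.23±0.10 and was not called.

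The count of members that changed with GSI in NT cells rested on single libraries. It was 14 without NT DMSO replicate 1, 17 without NT GSI replicate 1, 16 without NT GSI replicate 3 and 43 without NT GSI replicate 2, the library with the low mitochondrial share. The median stayed between -0.23 and -0.09 in all of these. With library totals in place of scaling factors the count was 14 and the median -0.07.

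In KO cells few members were called with CB-103. Against KO DMSO, 8 members rose and 5 fell, where 24.9% and 23.7% of all genes did. Their median was 0.03, and -0.00 with library totals, which gave 6 rises and 6 falls. RPL10 rose from 1197, 1365 and 1413 CPM to 1600, 1726 and 1904 CPM (0.40±0.09, adjusted p = 0.0012), with no overlap, and kept its call in every alternative run. RPL31 (0.22±0.06), RPL37 (0.22±0.06) and RPLP0 (0.18±0.05, adjusted p = 0.0029) rose as well. RPL7A fell in KO cells too, from 1682, 1638 and 1676 CPM to 1456, 1393 and 1516 CPM (-0.19±0.05, adjusted p = 0.0057), and RPL7L1 by 0.21 (SE 0.05).

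With GSI in KO cells, 19 members rose and 1 fell, against 9.69% and 9.58% of all genes. The fold change was positive for 76 of 83 (median 0.14, against -0.00 over all genes and 0.00 over abundant ones). RPS3A, a small-subunit protein, went from 2259, 2242 and 2267 CPM in KO DMSO to 2526, 2880 and 3162 CPM (0.34±0.07, adjusted p = 0.003), and RPL31 from 462.3, 440.9 and 462.7 CPM to 531.9, 542.0 and 607.9 CPM (0.30±0.06, adjusted p = 0.002). Every KO GSI library lay above every KO DMSO library for both genes. RPLP0, the stalk base, rose by 0.25±0.05 (adjusted p = 0.00075). RPL7L1 was the member that fell (-0.21±0.05, adjusted p = 0.0038). RPS15 had the lowest fold change, -0.38±0.17, and did not pass. Without KO GSI replicate 3 the count of called members was 10, and in replicates 2 and 3 alone it was 52.

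Whether the genotypes responded differently was tested by the interaction, the response of KO cells minus that of NT cells. For GSI, 24 members were higher and none lower, where 2.1% of all genes were higher and 0.692% lower, 2.79% in all. The interaction was positive for 79 of 83 and for all 43 large-subunit genes, with a median of 0.29 (all genes 0.02, abundant genes 0.09). It was led by RPL31 (0.47±0.09, adjusted p = 0.016), RPS3A (0.44±0.10, adjusted p = 0.037), RPL38 (0.42±0.07, adjusted p = 0.016), RPL36A (0.42±0.09) and RPL36AL (0.41±0.09). For RPL38, NT cells went from 210.0, 195.2 and 200.8 CPM to 162.2, 172.3 and 163.5 CPM, and KO cells from 186.6, 195.7 and 194.4 CPM to 196.2, 221.4 and 216.8 CPM. Groups did not overlap in either genotype, with GSI below DMSO in NT cells and above it in KO cells.

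These GSI calls lay near the threshold. No member passed an adjusted p under 0.01 in edgeR's test. The count of called members was 1 without NT DMSO replicate 1, 7 without replicate 2 and 6 without replicate 3 of that group. It was 2 without NT GSI replicate 1, 58 without replicate 2 and 8 without replicate 3. It was 13 without KO DMSO replicate 1, 9 without KO DMSO replicate 2, 4 without KO GSI replicate 2 and 2 without KO GSI replicate 3. Library totals gave 8 members and a median of 0.19. The median stayed between 0.26 and 0.39 with any 1 library left out. A fit with the replicate number as a block called more members, and its count is given in the last section. RPL31 lost its call without NT DMSO replicate 1 (0.44, adjusted p = 0.051), and RPL38 kept its call without any 1 library but lost it with gene sums of the transcript estimates (adjusted p = 0.1). RPS3A lost its call without any 1 of 9 of the 12 libraries in the comparison (adjusted p = 0.056 to 0.097), the exceptions being NT GSI replicate 2, KO DMSO replicate 3 and KO GSI replicate 1. RPL36A and RPL36AL each lost theirs without any 1 of 8 libraries (adjusted p up to 0.091 and 0.089).

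For CB-103 the interaction was higher for 15 members and lower for none, beside 10.3% and 4.34% of all genes (median 0.18, against 0.01 over all genes and 0.13 over abundant ones, of which 28.4% were higher). RPL7A differed most, by 0.61±0.08 (adjusted p = 5.3e-05), being 1.74-fold lower with CB-103 in NT cells and 1.14-fold lower in KO cells. RPL24 followed (0.39±0.09, adjusted p = 0.0052), with 653.3, 616.5 and 624.5 CPM in KO DMSO and 589.2, 580.9 and 636.4 CPM in KO CB-103, groups that overlapped where those of NT cells did not. RPS9 (0.36±0.09) and RPS26 (0.35±0.09) were called too, and both lost the call without KO CB-103 replicate 3 (adjusted p = 0.057). The count was 9 without NT CB-103 replicate 3 or without KO DMSO replicate 2, and 7 without KO CB-103 replicate 3.

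**Figure D3:**
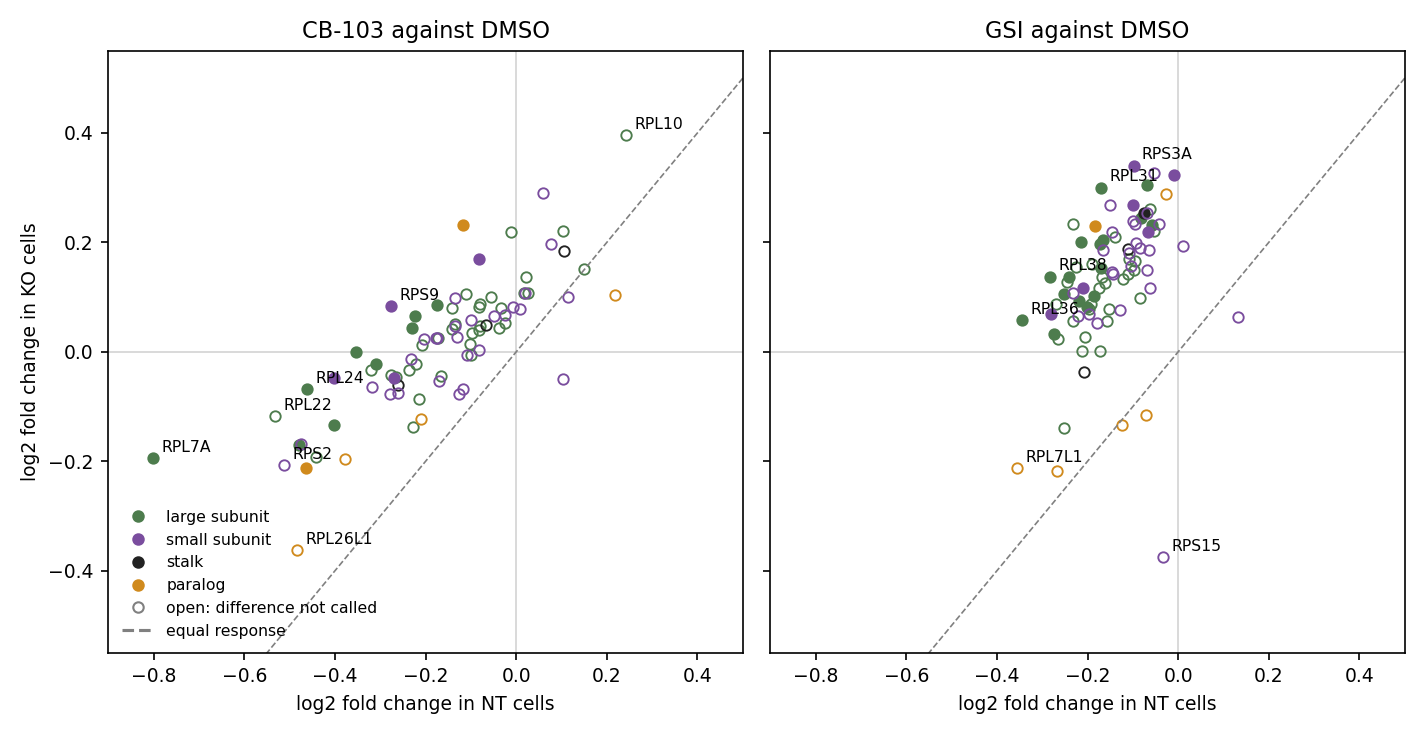
Log2 fold change with CB-103 (left) and GSI (right) against DMSO in KO cells (vertical) and in NT cells (horizontal) for the 83 genes; filled points were called for the difference between genotypes and the dashed line marks equal response. Most points lie above the line in both panels, RPL7A stands farthest left with CB-103, and RPS15 lies lowest with GSI.

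**Figure D4:**
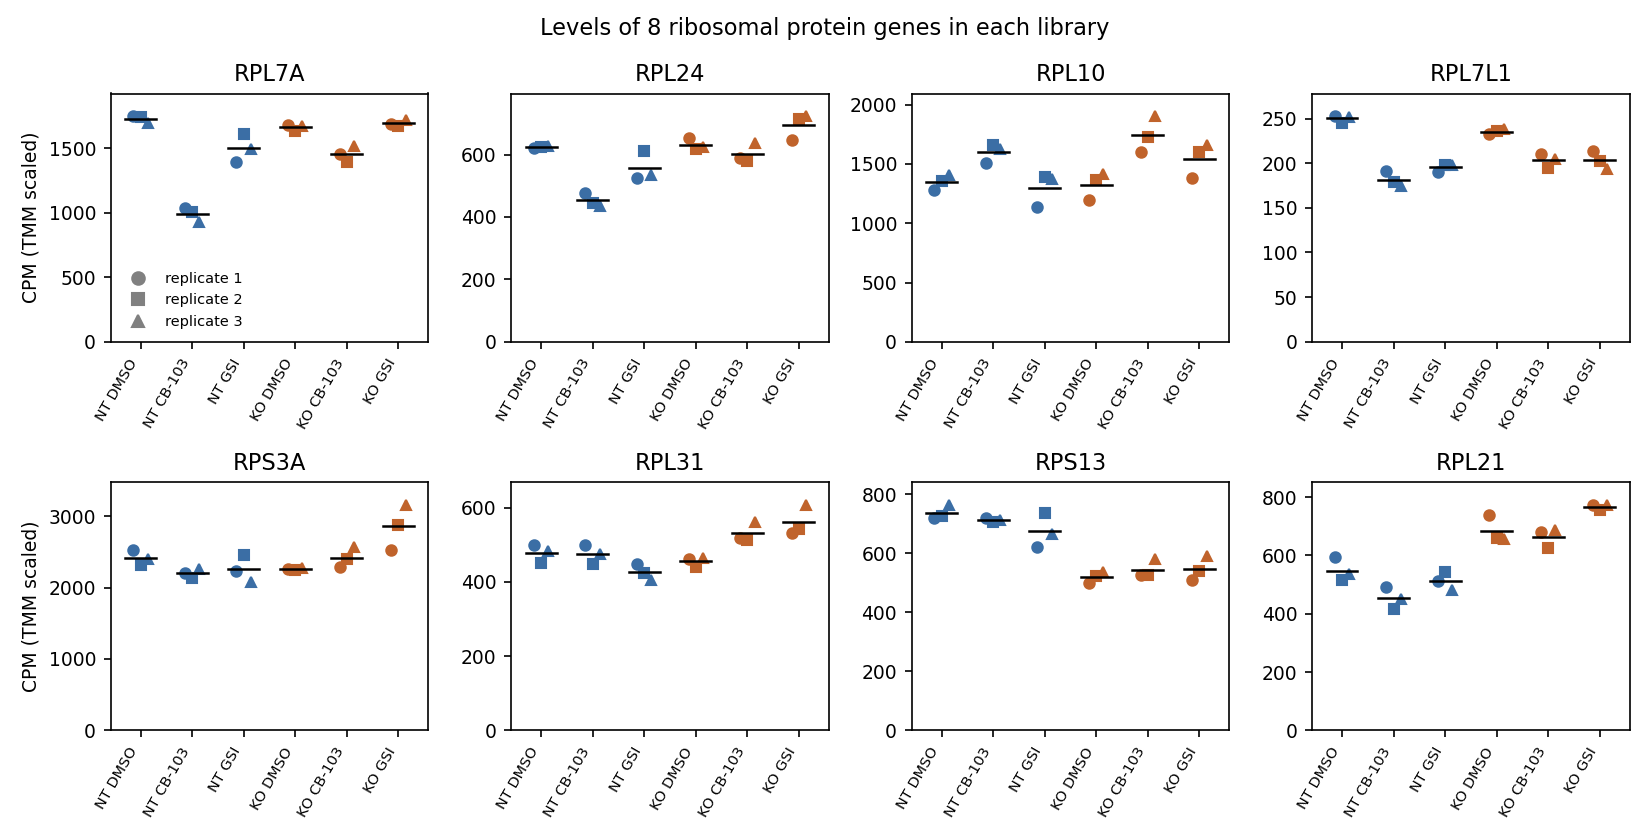
Counts scaled to library size (CPM) of 8 members in each of the 18 libraries, with the replicates as symbols and group means as bars. RPL7A is lowest in NT CB-103 (932.7 to 1041 CPM), RPS13 is lower and RPL21 higher in all KO groups than in the matching NT groups.

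Without inhibitor, KO cells differed from NT cells in few members. Under DMSO 5 were lower and 1 higher in KO cells, where 11.7% and 9.78% of all genes were, and the median was -0.01. Library totals gave 5 lower and 5 higher with a median of 0.05, so no direction is given for the list. RPS13, a small-subunit protein (chr 11, 17074389-17077787), stood at 719.0, 724.5 and 764.8 CPM in NT DMSO and at 500.2, 521.3 and 537.4 CPM in KO DMSO (-0.50±0.06, adjusted p = 1.6e-05). RPS12 (chr 6, 132814441-132817564) went from 935.3, 884.4 and 926.1 CPM to 672.5, 648.6 and 672.8 CPM (-0.46±0.06, adjusted p = 2.2e-05). The 2 groups were well separated for both genes.

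RPL36AL (chr 14, 49618519-49620685), a paralog of RPL36A, was lower by the same amount (-0.46±0.07, adjusted p = 4.7e-05), and RPL27A (chr 11, 8682411-8714759) by -0.37±0.09 (adjusted p = 0.0051). RPL21 (chr 13, 27251309-27256691) was the 1 gene higher in KO cells, at 739.0, 659.8 and 655.2 CPM against 594.2, 515.1 and 535.5 CPM (0.32±0.07, adjusted p = 0.0026). These 5 kept their calls in every alternative run. RPS25 (-0.18±0.05, adjusted p = 0.029) lost its call without NT DMSO replicate 1 or 3 or KO DMSO replicate 2 or 3.

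Some of these members differed under the inhibitors too. RPS13 was lower in KO cells by 0.39 (SE 0.06) under CB-103 and by 0.30 (SE 0.06) under GSI. RPL21 was higher by 0.55±0.07 and 0.58±0.07, and RPS12 gave -0.48±0.06 and -0.17±0.06, the second value losing its call without NT GSI replicate 2 or 3 or KO GSI replicate 1 or 2. RPL36AL and RPL27A were not called under either inhibitor. Neighbouring genes lay on the same side. Protein-coding genes within 10 Mb of RPS13 that averaged 5 CPM or more had a median of -0.40 under DMSO, and 42 of 44 were lower in KO cells. Around RPS12 the median was -0.38 (27 of 30 lower), around RPL36AL -0.36 (50 of 55), around RPL27A -0.22 (81 of 95), and around RPL21 0.37 (47 of 49 higher).

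Some of these differences extended over the chromosome and some did not. All 323 such genes of chromosome 14 had a median of -0.39 in KO against NT cells under DMSO (293 lower), those of chromosome 11 a median of -0.17, and the 163 of chromosome 13 a median of 0.25 (123 higher). The 486 genes of chromosome 6 had a median of -0.08 (324 lower), so the larger difference around RPS12 was not shared by its whole chromosome. RPS29, beside RPL36AL on chromosome 14, gave -0.39±0.17 and was not called. Over the 83 members, the difference under DMSO had an SD of 0.145, and 0.097 once each member's neighbour median was subtracted. Its correlation with the neighbour median was 0.74 (Pearson) and 0.29 (Spearman). It is given as a description, since neighbouring members share neighbours and the Pearson value leans on the few members at the extremes. This window was chosen after the differences had been seen, and DNA was not measured here.

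**Figure D5:**
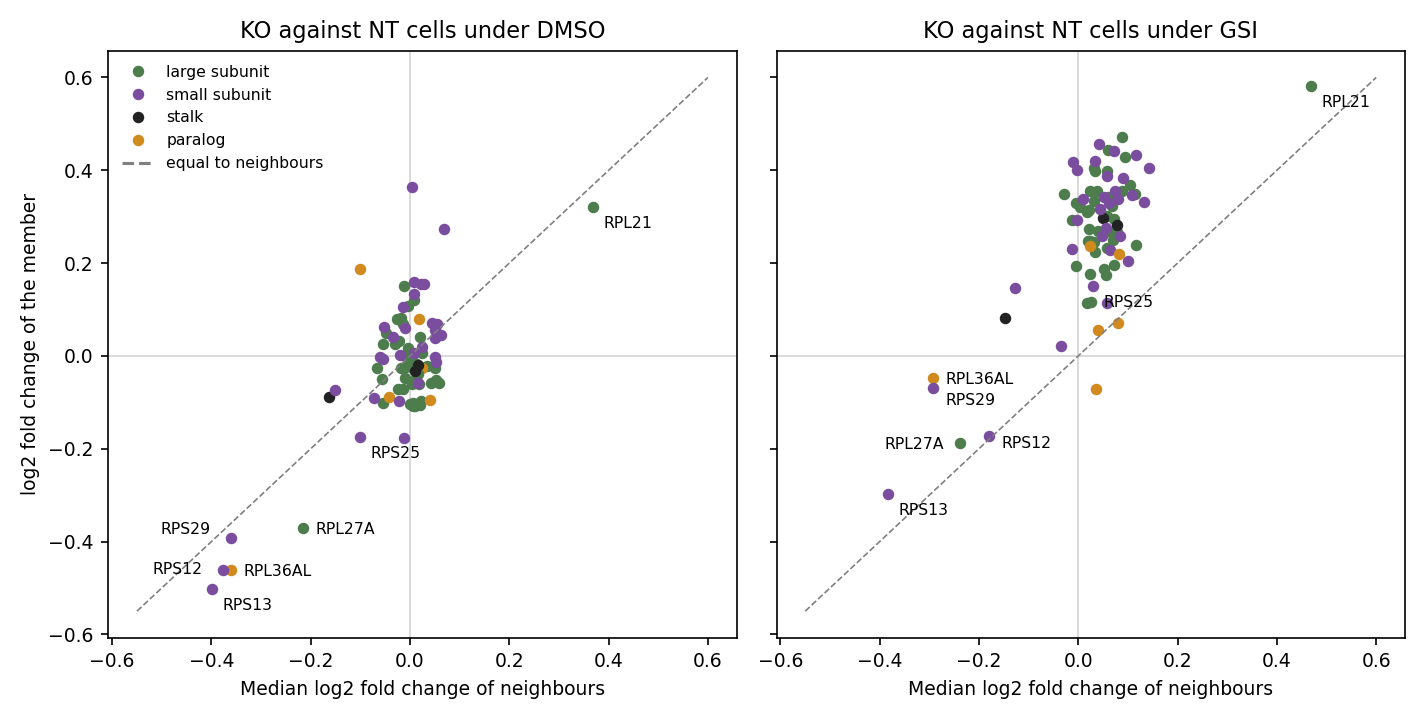
Log2 fold change of each member in KO against NT cells (vertical) against the median of its neighbours within 10 Mb (horizontal), under DMSO (left) and GSI (right), with a dashed line of equality. RPS13, RPS12, RPL36AL, RPS29 and RPL27A lie low and RPL21 lies high on both axes under DMSO, and under GSI 81 of the 83 points lie above the line.

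Under the inhibitors, most called members were higher in KO cells than in NT cells given the same agent. Under GSI 60 members were higher and 2 lower (RPS13 and RPS12), beside 18.8% and 15% of all genes (33.8% called in all), with a median of 0.29 (abundant genes 0.06). Of the large subunit 36 of 43 were higher, of the small subunit 23 of 31, of the stalk RPLP0 alone, and of the paralogs none. The median was 0.24 above that of the neighbours. Leaving out any 1 library gave 51 to 70 called members and a median of 0.26 to 0.39.

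Under GSI the larger differences besides RPL21 included those of RPL11 (0.47±0.10, adjusted p = 0.0011), RPL41, the shortest of the proteins (0.44±0.06, adjusted p = 3e-05), RPS27 (0.44±0.11) and RPSA (0.42±0.05, adjusted p = 7e-06). RPL5 (0.31±0.06) and RPS6 (0.32±0.11), the substrate of the S6 kinases, were also higher, the second losing its call without NT GSI replicate 1 or 3 or KO GSI replicate 1 or 3. RPS14 (0.28±0.09) and RPS19 (0.23±0.07), known for their loss or mutation in anaemias, were called at adjusted p = 0.019 and 0.023. They lost the call without NT GSI replicate 1 or KO GSI replicate 3.

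Under CB-103, 35 members were higher in KO cells and 2 lower, beside 20.4% and 16.5% of all genes (37% in all), with a median of 0.16 (abundant genes 0.10, of which 40.5% were higher). RPS15 (0.67±0.17, adjusted p = 0.0043) led, at 220.4, 251.0 and 275.0 CPM in NT CB-103 and 316.7, 470.7 and 400.0 CPM in KO CB-103, followed by RPL21, RPL7A (0.55±0.05), RPL24 (0.41±0.06) and RPL23 (0.36±0.06). The KO libraries of RPS15 were spread widely yet lay above all NT libraries. The count was 17 without KO CB-103 replicate 3, 19 without NT CB-103 replicate 2 and 21 without NT CB-103 replicate 3.

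The inhibitors were also compared directly. In NT cells 11 members were higher and 14 lower with CB-103 than with GSI, where 29.2% and 27.1% of all genes were (56.3% in all), with a median of 0.00. DESeq2 size factors gave 7 higher and 17 lower and a median of -0.03, so no direction is given for the list. RPL7A was lower with CB-103 (-0.60±0.05, adjusted p = 2.9e-08) and RPL26 higher (0.32±0.06, adjusted p = 0.00015). In KO cells 24 were lower and 1 higher with CB-103, beside 23.1% and 24.7% of all genes, 47.9% in all (member median -0.11). The share lower was 28.9% of members, below the 41.9% of abundant genes, of which 29.9% were higher (median -0.09). RPL13A (-0.27±0.05, adjusted p = 0.00029) and RPSA (-0.27±0.05) were among the lower members. RPL8 was the higher one (0.17±0.05), a call lost without any 1 of the KO CB-103 libraries or KO GSI replicate 2. Without KO GSI replicate 3 the count was 11. Doses of the 2 agents are not known here, so these are differences between treatments as given.

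The paralogs are set here beside their parent genes. RPL26L1 fell with CB-103 in NT cells, from 5.61, 5.77 and 6.13 CPM to 4.41, 4.11 and 3.99 CPM (-0.48±0.12, adjusted p = 0.0023), while RPL26 gave the small rise named above. RPL39L, at 47.1, 54.8 and 46.4 CPM in NT DMSO, fell to 34.8, 37.8 and 41.6 CPM (-0.38±0.10, adjusted p = 0.0042), beside -0.17±0.07 for RPL39, whose call was lost without NT DMSO replicate 1 or 3 or NT CB-103 replicate 2 or 3. RPL7L1 fell with either inhibitor in either genotype, whereas RPL7 fell in NT cells alone at the threshold (-0.21±0.05 with CB-103 and -0.19±0.05 with GSI, the second lost without NT DMSO replicate 1 or NT GSI replicate 1 or 3). RPL36AL rose with both inhibitors in KO cells (0.23±0.07 for each), and its GSI call was lost without KO GSI replicate 1 or 3.

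RPL22L1 was not called in any comparison with DMSO or between genotypes. It stood at 11.7, 13.3 and 15.7 CPM in NT DMSO and 14.1, 15.3 and 18.1 CPM in NT CB-103 (0.22±0.14, adjusted p = 0.2) beside the fall of RPL22, and was higher with CB-103 than with GSI in NT cells (0.49±0.14, adjusted p = 0.0071). RPS27L, a paralog of RPS27 induced by p53, gave 0.29±0.10 with GSI in KO cells, a call lost without any 1 of KO DMSO replicates 1 to 3 or KO GSI replicates 1 and 3, and was lower with CB-103 than with GSI there (-0.41±0.10, adjusted p = 0.0022). No paralog was called between genotypes under GSI. Differences between a paralog and its parent were not tested.

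Other genes of the translation machinery, taken from lists chosen with earlier results of these data known, are given for comparison. Of 78 mitochondrial ribosomal protein genes, 43 fell and 12 rose with CB-103 in NT cells (median -0.27), led by MRPL23 (-0.99±0.06) and MRPL12 (-0.97±0.08), with MRPL49 rising by 0.84±0.06. Thus 55.1% fell and 15.4% rose, beside 28.7% and 29.5% of all genes and 53.3% and 26.7% of abundant genes. With GSI 51 fell and none rose in NT cells (median -0.30), and 16 fell and 5 rose in KO cells (median -0.09). In NT cells 65.4% fell, beside 15% of all genes and 30.1% of abundant genes. In KO cells 20.5% fell and 6.41% rose, beside 9.58% and 9.69% of all genes and 17.01% and 16.93% of abundant genes. The share that fell in KO cells was thus near that of abundant genes. Between genotypes under GSI 40 were higher (51.3%) and none lower (median 0.20), beside 18.8% of all genes and 31.0% of abundant genes higher. The GSI interaction of the 78 was higher for 14 (17.9%) and lower for none (median 0.23). It was higher for 2.1% of all genes and 5.63% of abundant genes.

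Chaperones and late assembly factors of the ribosome fell with GSI in NT cells for 19 of 20 (median -0.45) and in KO cells for 12 of 20 with no rise (median -0.25). These were 95% and 60%, beside 15% and 9.58% of all genes and 30.1% and 17.01% of abundant genes. BYSL, a factor of small-subunit assembly, fell by 0.81 (SE 0.07) and 0.61 (SE 0.07) in the 2 genotypes. With GSI in KO cells, then, these factors fell in a comparison in which 19 ribosomal protein genes rose. With CB-103 the list was split, 9 falling (45%) and 6 rising (30%) in NT cells, with SBDS, which releases the anti-association factor EIF6, at 0.94±0.05. Of all genes 28.7% fell and 29.5% rose there, and of abundant genes 53.3% and 26.7%.

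Of 20 other TOP messages and ribosome-bound proteins, 7 fell and 1 rose with GSI in NT cells and 5 rose in KO cells. Thus 35% fell in NT cells and 25% rose in KO cells, beside 15% and 9.69% of all genes and 30.1% and 16.9% of abundant genes. Between genotypes 11 were higher under GSI and 13 under CB-103, with none lower. These were 55% and 65%, beside 18.8% and 20.4% of all genes and 31.0% and 40.5% of abundant genes. The ribosome-bound RACK1 was higher in KO cells by 0.29±0.04 under GSI, as was TPT1 (0.57±0.06), which lies on chromosome 13. Of 14 genes of TOR signalling, 6 fell with GSI in each genotype (42.9%, all genes 15% in NT and 9.58% in KO cells). In NT cells 1 rose. Those that fell included EIF4EBP1 (-0.78±0.05 in NT and -0.50±0.05 in KO cells) and the TOP-binding LARP1 (-0.35±0.06 and -0.46±0.06). DEPTOR, an inhibitor of mTOR, rose with CB-103 by 1.77±0.18 in NT and 1.93±0.19 in KO cells. MYC, an activator of ribosome genes, fell in all 4 inhibitor comparisons, by 1.63 to 2.2 on the log2 scale.

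Summed over all members, most RNA was assigned to coding transcripts. In NT DMSO 92.1% of member TPM belonged to transcripts annotated as protein coding, 4.13% to retained introns and 2.41% (SD 0.22) to transcripts annotated for nonsense-mediated decay. The last share was 2.89% (SD 0.16) in NT CB-103 and 2.44% (SD 0.19) in NT GSI. For 24 genes a noncoding transcript reached 5% of the gene in some group. With CB-103 the noncoding share was higher in all 3 treated than in all 3 DMSO libraries for 5 of 24 genes in NT cells and for 5 in KO cells, namely RPS12, RPL13A, RPLP0, RPS25 and RPL22L1 in both. By the same rule it was so for 15.4% of 7677 protein-coding genes in NT cells and 7.07% in KO cells, and for 23.9% and 10.6% of the 1143 that averaged 100 CPM or more. With GSI it was so for 0 members in NT cells and 2 in KO cells, beside 8.27% and 3.14% of the 7677 genes. The 2 were RPS27A (36.1% in KO GSI, 32.1% in KO DMSO) and RPL8, whose KO GSI share varied widely (15.3%, SD 20.2). In the same comparison RPL13 was lower (30.2% against 35.6%), as were 10.2% of the 7677 genes. The smallest p that an exact permutation test of 3 against 3 libraries allows is 0.10, so no gene could pass.

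The retained-intron transcript RPS12-202 made up 2.71%, 2.98% and 2.82% of RPS12 in NT DMSO and 6.57%, 6.56% and 6.15% in NT CB-103, and it went from 2.62% (SD 0.28) to 5.72% (SD 0.40) in KO cells. In RPLP0 the noncoding share was 6.66% (SD 1.5) in NT DMSO and 20.6% (SD 3.2) in NT CB-103. RPL22L1 was mostly assigned to RPL22L1-204, which is annotated for nonsense-mediated decay, at 76.8% (SD 3.7) in NT DMSO, so its gene counts mainly reflect that form. RPS24 is known for alternative 3′ exons. Its transcript RPS24-202, chosen after its values were seen, made up 14.8%, 15.2% and 16.9% of RPS24 in NT DMSO, 24.0%, 22.7% and 19.6% in NT CB-103, and 24.8%, 22.8% and 21.7% in KO DMSO, with no overlap with NT DMSO. It reached 31.1% (SD 1.7) in KO CB-103. These shares are estimates that divide reads among overlapping transcripts.

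Features outside the rule did not separate members by response in these medians. With a start tract of at least 8 the median was -0.14 with CB-103 in NT cells (51 members) and without it -0.14 (11 members). For GSI the medians were -0.15 and -0.12 in NT cells and 0.15 and 0.14 in KO cells. The 28 members with at least 1 small nucleolar RNA gene inside them had medians of -0.15 with CB-103 and -0.14 with GSI in NT cells, and the 55 others -0.14 and -0.15. For the GSI interaction the values were 0.29 and 0.30. These groups were not tested against each other. The tract was read at annotated starts, some of them far from the start of the main transcript.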

How the data were processed

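Poly(A) RNA libraries, stranded and paired-end, were processed by the submitters. The submitters' processing notes list Salmon 1.4.0 and HISAT2 2.2.1, build hg38, FastQC 0.11.9 and bcl2fastq 2.20, without roles. Per the file headers, the authors deposited estimated counts per gene and TPM and estimated counts per transcript. A deposited table of log2 variance-stabilised values was not used. All 58735 genes and 206601 transcripts matched GENCODE release 29.

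Counts were rounded and tested with edgeR 4.0.16 (R 4.3.3, limma 3.58.1): filterByExpr, TMM factors (0.954 to 1.03), quasi-likelihood tests over all 18 libraries with 12 residual degrees of freedom, and Benjamini-Hochberg adjustment over 17346 genes within each of 11 comparisons. Calls required an adjusted p under 0.05. Errors of fold changes are standard errors (n = 3 libraries a group). Scripts were tested on simulated data. Alternatives were other scaling and filters, DESeq2 1.42.0, limma-voom, a replicate block, single libraries left out, transcript sums and added pseudogene reads. The 10 Mb neighbour windows, the transcript shares of RPS24 and the all-gene counts for noncoding shares were chosen after seeing the data.

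Members and lists were chosen with earlier results of these data known. Named genes were fixed members (paralogs with their parents, stalk genes, RPSA, RPL3, RPL5, RPL10, RPL11, RPL23, RPL41, RPS6, RPS14 and RPS19), up to 5 largest called rises and falls per comparison, and up to 4 of each comparison list. RPS9, RPS26, RPL13A and RPL38, where outside this rule, RPS29 and RPS24 were named after their values were seen. Some genes that this rule names are not reported here.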

Additional observations from a re-analysis of the deposited data

Results flagged for a closer look

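The test of the difference between genotypes in response to an inhibitor called 15 members for CB-103 and 24 for GSI (edgeR, adjusted p under 0.05). In all of them the log2 fold change was higher in KO than in NT cells, which can also be a smaller fall, as for RPL7A with CB-103. The 15 called for CB-103 were 18.1% of members, beside 10.3% of all genes and 28.4% of abundant genes. The 24 called for GSI were 28.9%, beside 2.1% of all genes and 5.63% of abundant genes. For CB-103 the log2 differences were 0.61 for RPL7A, 0.39 for RPL24, 0.36 for RPS9, 0.35 each for RPS26, RPL23 and RPL36AL, 0.27 for RPL3, 0.25 for RPL7L1 and 0.22 for RPSA. RPL7A and RPL24 kept this call in every alternative run, and RPL23 and RPL3 kept it without any 1 of the 12 libraries. The call of RPSA was lost without any 1 of the 12 (adjusted p = 0.052 to 0.17), that of RPL7L1 without any 1 of 5, that of RPL36AL without either of 2, and those of RPS9 and RPS26 without KO CB-103 replicate 3. For GSI they were 0.47 for RPL31, 0.44 for RPS3A, 0.42 for RPL38, 0.42 for RPL36A, 0.41 for RPL36AL, 0.37 for RPL41 and 0.33 for RPLP0. RPL26 gave 0.32, RPL23 0.31, RPL7 0.29, RPSA 0.29 and RPL3 0.28. The adjusted p values for GSI lay between 0.016 and 0.049 for these genes. Most of them did not hold without single libraries: the call was lost without any 1 of 10 of the 12 libraries for RPL3, RPL7 and RPL23 (adjusted p up to 0.094, 0.12 and 0.12), of 9 for RPS3A, RPL26 and RPSA, of 8 for RPL36A, RPL36AL and RPL41, of 3 for RPLP0 and of 1 for RPL31, and of none for RPL38.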

How the results depend on the processing

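Among the named genes, no called direction reversed in any alternative, and other members were not checked for this. The counts of called members under CB-103 in NT cells (37; 30 to 41 without any 1 library) and between genotypes under GSI (62; 51 to 70) stayed within 1.5 times in every alternative. The others moved under some, in the order given here: GSI in NT cells (28), CB-103 in KO cells (13), GSI in KO cells (20), genotypes under DMSO (6) and CB-103 (37), CB-103 against GSI in NT (25) and KO cells (25), and the interactions with CB-103 (15) and GSI (24). At an adjusted p under 0.01 they gave 13 (GSI in NT), 10 (GSI in KO), 21 (genotypes, CB-103), 14 and 12 (CB-103 against GSI), 5 and 0 (interactions). Library totals gave 14 for GSI in NT cells, 10 for genotypes under DMSO and 8 for each interaction. DESeq2's Wald test gave 23 and 45 for the interactions. Without a count filter the counts were 6 (CB-103 in KO), 14 (CB-103 against GSI in KO), 7 and 15 (interactions). With the groups compared alone they were 13 (genotypes, DMSO) and 23 (CB-103 interaction). Replicates 2 and 3 alone gave 14, 20, 52 and 10 for the first 4 counts and 26 and 4 for the interactions. Gene sums of transcript estimates gave 11 for genotypes under DMSO. The cause of these moves was not tested. Without any 1 library the ranges were 14 to 43, 10 to 13, 10 to 26, 5 to 7, 17 to 43, 17 to 28, 11 to 32, 7 to 21 and 1 to 58.

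With the replicate number as a block the counts that moved were 37 (GSI in KO), 11 (genotypes, DMSO), 39 and 38 (CB-103 against GSI), 28 and 54 (interactions). The deviation of each library from its group mean, in log CPM per gene, was correlated between same-numbered libraries of different groups. These correlations were 0.257 to 0.352 for replicate 1, -0.0713 to 0.173 for replicate 2 and 0.047 to 0.147 for replicate 3 (15 pairs each). Replicate 1 thus shared a deviation across the groups, which the main fit left in its spread. For replicates 2 and 3 the correlation was weak, and the main fit used no block.

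As TPM the shares were 20.87% in NT DMSO, 19.88% in NT CB-103, 20.21% in NT GSI, 22.18% in KO DMSO, 22.39% in KO CB-103 and 23.35% in KO GSI. Without mitochondrially encoded genes they moved to 8.121%, 7.851% and 8.279% in NT DMSO, NT CB-103 and KO DMSO, and with pseudogenes added to 8.017%, 7.594% and 8.307%. The lowest member, RPL26L1, stood at 3.99 to 6.97 CPM, so its counts were the least precise.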
